A study of Mus musculus with 6 samples.

Results

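Peaks of Flag-tagged OTUD3 that lay beside genes, more than 1 kb and at most 20 kb from the nearest protein-coding gene end and outside every gene body, are described here. They were chosen by the position of the summit on chromosomes 1 to 19. In the few intervals listed with several summits, the summit of lowest p set the position. Of 31709 peak intervals in 3 libraries, 4876 met the rule. Replicate 1 gave 2015 of 11787, replicate 3 gave 992 of 6504, and replicate 4 gave 1869 of 13418. Each is described by its nearest gene, and nearness in the linear sequence does not show which gene, if any, a region acts on.

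The peaks came from ChIP-seq, in which DNA held by a protein in chromatin is pulled down with an antibody and sequenced. The tissue was epididymal fat of mice, collected 4 weeks after AAV2, an adeno-associated virus, with Otud3-Flag was injected into the peritoneum; the promoter that drove it is not stated in the labels. An antibody against the Flag tag gave 3 libraries, numbered 1, 3 and 4, and 3 input libraries with the same numbers were not analysed here. All libraries used here came from tissue given the virus, and none without tagged OTUD3 was analysed. The labels give no strain, age or sex, name the cells as adipocytes although tissue was taken, and leave unsaid whether each library stands for its own animal, so the spread between libraries, and p-values built on it, may be technical.

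OTUD3 takes ubiquitin off other proteins and belongs to the ovarian tumour (OTU) group of deubiquitinases. It is not known as a DNA-binding protein, and a peak of such a protein is read as contact with chromatin directly or through other proteins. The stretches beside genes hold enhancers, which are short elements where transcription factors gather, along with the starts of many long noncoding RNAs (lncRNAs) and the hairpins of microRNAs (miRNAs). In fat tissue, enhancers near genes of adipocyte identity and lipid storage bind factors such as PPARG, the C/EBP proteins and AP-1, the dimer of FOS and JUN proteins.

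Sequence could be read for members that fell on the start of a lncRNA, from RefSeq windows of build GRCm38.p6 that run from before each annotated start to just past it. Of 1859 lncRNA genes that start in the stretches beside protein-coding genes, 12 had a member over this window, through 12 members, of which 9 came from replicate 1, 1 from replicate 3 and 2 from replicate 4. The 4 windows below show how such peaks sit on the DNA, with capitals for the bases inside the peak. The window of 1700016G22Rik (mm10 chr13:5858043-5858342, minus strand), near Klf6, a zinc finger factor of the early transcriptional response, lay wholly inside a replicate 1 peak of fold 4.27. That of Gm39476 (chr9:70160218-70160517, minus strand), near Fam81a, overlapped a peak of replicate 1 at its downstream end. That of Gm36619 (chr5:100726849-100727148, plus strand), near Hpse, the gene of heparanase, overlapped a replicate 3 peak of fold 2.39 that began before the window, and that of Gm35409 (chr3:146036528-146036827, plus strand), near Wdr63, overlapped a replicate 4 peak of fold 2.49 that also began before it.
1700016G22Rik: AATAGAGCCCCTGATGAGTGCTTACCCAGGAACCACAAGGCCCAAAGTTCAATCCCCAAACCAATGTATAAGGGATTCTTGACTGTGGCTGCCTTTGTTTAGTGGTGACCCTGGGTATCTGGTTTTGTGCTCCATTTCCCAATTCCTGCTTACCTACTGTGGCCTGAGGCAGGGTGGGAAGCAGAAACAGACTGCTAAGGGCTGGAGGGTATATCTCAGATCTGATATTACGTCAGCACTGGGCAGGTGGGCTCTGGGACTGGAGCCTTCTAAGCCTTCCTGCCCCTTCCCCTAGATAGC
Gm39476: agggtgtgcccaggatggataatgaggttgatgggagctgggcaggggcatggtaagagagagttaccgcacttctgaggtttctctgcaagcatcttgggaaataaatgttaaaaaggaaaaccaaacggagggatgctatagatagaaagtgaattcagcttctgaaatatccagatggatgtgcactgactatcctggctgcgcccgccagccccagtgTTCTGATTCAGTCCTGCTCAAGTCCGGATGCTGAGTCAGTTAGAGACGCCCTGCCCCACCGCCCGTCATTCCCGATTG
Gm36619: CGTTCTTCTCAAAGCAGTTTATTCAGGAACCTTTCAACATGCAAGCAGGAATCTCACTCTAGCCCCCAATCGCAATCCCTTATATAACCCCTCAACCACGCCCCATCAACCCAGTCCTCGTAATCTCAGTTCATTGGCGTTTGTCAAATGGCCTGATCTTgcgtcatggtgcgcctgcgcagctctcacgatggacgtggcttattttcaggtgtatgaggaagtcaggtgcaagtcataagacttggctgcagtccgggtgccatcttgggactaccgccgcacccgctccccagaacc
Gm35409: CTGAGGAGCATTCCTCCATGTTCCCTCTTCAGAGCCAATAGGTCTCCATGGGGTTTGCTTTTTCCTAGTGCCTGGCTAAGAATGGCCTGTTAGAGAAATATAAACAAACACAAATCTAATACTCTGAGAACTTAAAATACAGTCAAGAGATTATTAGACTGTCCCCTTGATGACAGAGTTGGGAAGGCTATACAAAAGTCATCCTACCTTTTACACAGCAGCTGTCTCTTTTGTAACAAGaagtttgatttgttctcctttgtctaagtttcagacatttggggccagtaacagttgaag

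The windows were searched on both strands for the letters of 9 motifs. TGANTCA, the core that AP-1 binds, had 2 matches in the Gm39476 window, at positions 226 to 232 and 254 to 260, both inside the peak. That was the 1 window of 12 with these letters, which 7.81% of all 32851 windows at gene starts hold. All windows here include those of protein-coding genes, so these shares are not the shares of lncRNA windows alone. TTGCNNAA (C/EBP) occurred in 1 of the 12 and in 10.8% of all windows, and the NF-kB motif, given by name, in 5 of the 12 and in 50.8%. The other motifs were found in none of the 12: TGACGTCA (CRE, 1.79% of all windows), CACGTG (E-box, 7.15%), and the longer motifs of EBF (0.904%), the PPAR DR1 element (0.0396%), NF1 (0.0365%) and the glucocorticoid receptor (GRE, 0.475%), given by name. A match of letters is a description and does not make a bound site, and absent letters say nothing of the factor. Matches of different motifs did not overlap in the 12 windows. The 12 windows had a median GC content of 51.7%, and all lncRNA windows 48.3%.

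Some members lay at miRNA genes. Hairpins were within 1 kb of 9 of the 4876 members, 6 in replicate 1, 1 in replicate 3 and 2 in replicate 4. Of 1005 annotated hairpins, 11 were involved. The share of all intervals with a hairpin this near was not worked out, so these counts have no background beside them. The peak at chr8:84208891-84209135 in replicate 1 overlapped Mir24-2 and Mir3074-2, the latter on the opposite strand, and began 133 bp from Mir27a and 299 bp from Mir23a of the same cluster. It had a fold of 2.79 from 4 fragments. The replicate 4 peak at chr11:79711972-79712206 overlapped Mir193a, with a fold of 3.57 from 7 fragments. Replicate 1 peaks also lay 29 bp from Mir212 and 140 bp from Mir22. No hairpin had a peak in more than 1 list. The mature miRNAs of the hairpins that lay nearest are printed because they name the products made beside these peaks, with the seed (bases 2 to 8, which pair with targets) in capitals. The 12 mature miRNAs of these 6 hairpins had 12 distinct seeds, of which 5 examples from the best known are given.
miR-24-3p: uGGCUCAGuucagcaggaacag
miR-27a-3p: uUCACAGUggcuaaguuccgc
miR-193a-3p: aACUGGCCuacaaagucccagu
miR-22-3p: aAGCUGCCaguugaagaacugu
miR-212-3p: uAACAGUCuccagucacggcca

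The stretches from 1 to 20 kb beside genes span 335.9 Mb of chromosomes 1 to 19, and summits lay there at 0.884 times their density in gene bodies, averaged over the libraries on the log2 scale. Their share was 17.1% for replicate 1 (95% Wilson interval 16.4 to 17.8), 15.3% for replicate 3 (14.4 to 16.1) and 13.9% for replicate 4 (13.4 to 14.5), a mean of 15.4 ± 1.59% (SD, n = 3). These intervals cover counting error only. There were 5.999, 2.95 and 5.56 summits per Mb beside genes, and 5.95, 3.57 and 6.73 in gene bodies. From 20 to 100 kb there were 3.98, 2.19 and 4.99, lower than beside genes in each library, which was not tested. Within 1 kb of gene ends there were 9.55, 3.58 and 5.42. Replicate 1 thus stood apart at gene ends, where it was densest, while replicate 4 had about equal densities at ends and beside genes. These ends take in 1 kb inside the gene as well as outside it. Outside gene bodies alone, the density within 1 kb was 7.47, 3.17 and 5.74 per Mb. The log2 ratio of density beside genes to that in bodies was 0.01, -0.27 and -0.27 (exact two-sided sign-flip permutation p = 0.5), and to that at gene ends -0.67, -0.28 and 0.04 (exact p = 0.5). With 3 libraries the smallest p this test can reach is 0.25, so no difference could pass a threshold of 0.05 here.

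**Figure D1:**
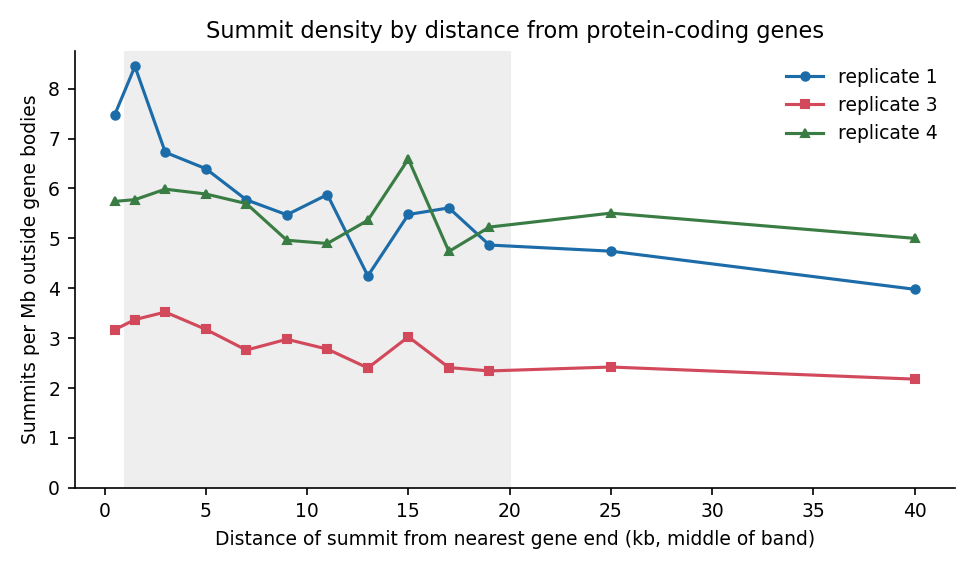
Summits per Mb of territory (vertical axis) in bands of distance from the nearest gene end (horizontal axis), with 1 line for each of the 3 Flag libraries and the 1 to 20 kb stretch shaded. In replicates 1, 3 and 4 the density in the 1 to 5 kb band was 7.19, 3.57 and 5.95 per Mb, above that in the 10 to 20 kb band of the same library.

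Within the stretches, the density was higher in the band nearest to genes than in the farthest in each of the 3 libraries. From 1 to 5 kb the density was 7.19, 3.57 and 5.95 per Mb (764, 379 and 632 members), from 5 to 10 kb 5.74, 2.75 and 5.42, and from 10 to 20 kb 5.23, 2.61 and 5.36. Beyond the stretches, from 50 to 100 kb, it was 3.60, 2.09 and 4.73, lower again in each library. In narrower bands the fall was not steady. The densest was 1 to 2 kb in replicate 1 (8.45 per Mb), 2 to 4 kb in replicate 3 (3.52) and 14 to 16 kb in replicate 4 (6.59). The log2 ratios of the nearest over the farthest band were 0.46, 0.45 and 0.15 (mean 0.35 ± 0.18 SD, a ratio of 1.28, exact sign-flip permutation p = 0.25, the smallest possible). The median member lay 6.98, 7.19 and 7.52 kb from its gene. Where the strand of the gene was known, the side before the start held 6.18, 2.93 and 5.77 summits per Mb and the side after the end 5.75, 3.10 and 5.30, so neither side was higher in all 3 libraries. By chromosome, chromosome 11 had the highest density in replicate 1 (9.32 per Mb) and replicate 4 (7.04), and chromosome 19 in replicate 3 (4.44).

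The members were weak peaks, with medians near those of the rest of each list. The caller's fold enrichment, which is the authors' value for each peak, had a median of 3.24, 3.00 and 3.02 in replicates 1, 3 and 4. The members' median differed from that of all other intervals by 0.04, 0 and 0 (exact sign-flip permutation p = 1). The summit of the median member rested on 4, 6 and 5 fragments, with ranges of 3 to 26, 5 to 17 and 4 to 51, so single members carry a large counting error. Their median widths were 245, 265.5 and 237 bp, and 55.4%, 45.3% and 49.5% had the narrowest width in their list. The same held for 58.8%, 43.8% and 48.4% of all intervals. Widths differed from those of other intervals by 0, -1.5 and -4 bp (exact p = 0.5). The widest members, picked by width alone, lay near Rps3, a ribosomal protein gene (948 bp, replicate 1), Grpel1, a mitochondrial co-chaperone gene (686 bp, replicate 3), and Tdpoz3 (862 bp, replicate 4). In bulk tissue, fewer cells with a contact and weaker contact in each cell cannot be told apart.

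**Figure D2:**
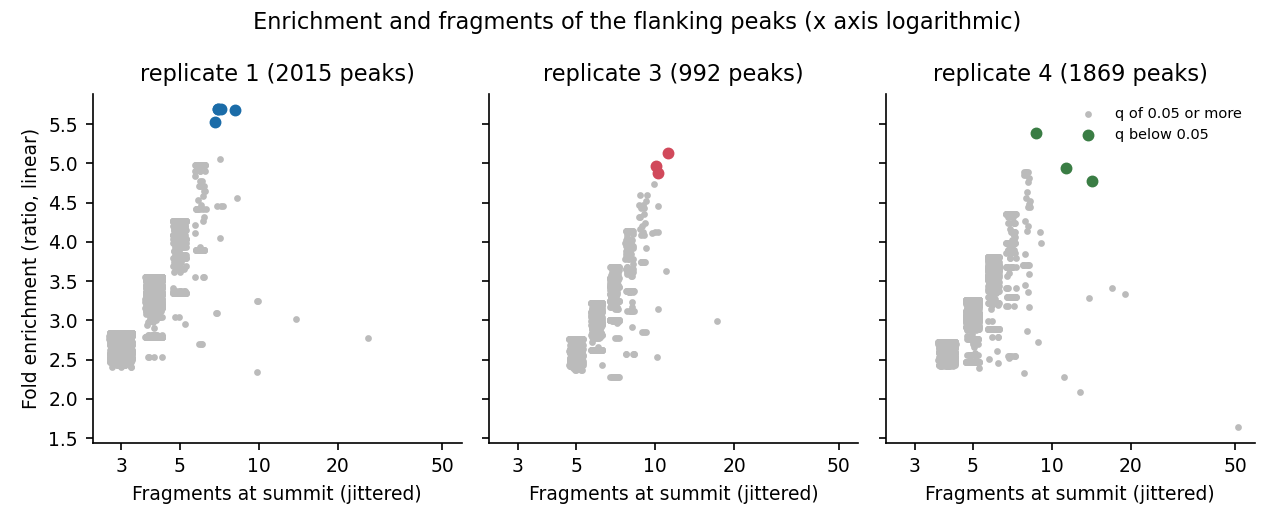
Fold enrichment of each member (vertical axis) against the fragments at its summit (horizontal axis, logarithmic, points jittered), for the 3 Flag libraries. Members with a q below 0.05, numbering 5, 3 and 3 in replicates 1, 3 and 4, are marked and lie at the upper edge of each cloud.

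Few members passed the caller's own false discovery threshold. At a q below 0.05 there were 5, 3 and 3 members in replicates 1, 3 and 4, where 0.331%, 0.323% and 0.432% of all intervals passed. By contrast 82.6%, 91.6% and 94.0% of the members had a q above 0.5, as did 83.9%, 91.3% and 93.3% of all intervals. The members' shares at a q below 0.05 were 0.248%, 0.302% and 0.161%, below that of all intervals in each library. The difference, largest in replicate 4, was not tested. The share of all intervals takes in peaks over 100 kb from genes, which had 0.754%, 1.09% and 1.28%. Peaks in gene bodies had 0.178%, 0.179% and 0.237%, so the members were above these in replicates 1 and 3 and below in replicate 4. The 11 peaks that follow describe the strongest members.

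In replicate 1 the strongest members lay near Smug1, a glycosylase that removes uracil from DNA (chr15:103149715-103150030, fold 5.68, 8 fragments on a background of 0.584, 3.40 kb away), Tns1, the focal adhesion protein tensin (chr1:73892547-73892841, fold 5.69, 7 fragments, 17.6 kb), and Hspa13, an HSP70-family chaperone (chr16:75782674-75783257, fold 5.69, 7 fragments, 15.6 kb). Esp6, a secreted gland peptide (chr17:40554331-40554591, fold 5.69), and Cyp2r1, the hydroxylase that makes 25-hydroxyvitamin D (chr7:114570492-114570770, fold 5.53), completed them. Their q ran from 0.0132 to 0.0173. Each of the 5 was called in replicate 1 alone.

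In replicate 3 they lay near Rbms1, an RNA-binding protein gene (chr2:60747486-60747789, fold 5.13, 11 fragments on a background of 1.34, q 0.0120), Hsd17b13, an enzyme of lipid droplets (chr5:103950947-103951232, fold 4.97, 10 fragments, q 0.0323), and the olfactory receptor gene Olfr1373 (chr11:52162983-52163270, fold 4.88, 10 fragments, q 0.0415). In replicate 4 they lay near Cd44, the receptor for hyaluronan (chr2:102903379-102903643, fold 4.78, 14 fragments on a background of 2.14, q 0.00284), Kdm4c, a histone H3 lysine demethylase (chr4:74416655-74416902, fold 5.39, 9 fragments, q 0.00672), and Dip2c (chr13:9272960-9273272, fold 4.94, 11 fragments, q 0.00959). The Cd44 member, 1.82 kb from the gene, was the only 1 of the 11 with a peak of another list over it, in replicate 1 with a fold of 3.25, 10 fragments and a q of 0.416. The 5 strongest of replicates 3 and 4 by p also took in members near Ublcp1, Olfr273, Nkx2-1 and H2-Q2, which missed the q threshold, with H2-Q2, a class I histocompatibility gene, at a fold of 4.89.

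The libraries rarely placed a member on the same spot. Of the members, 13 (0.645%), 8 (0.806%) and 12 (0.642%) in replicates 1, 3 and 4 overlapped a peak of another list by at least 1 bp, where 0.857%, 1.25% and 0.73% of all intervals did. Against intervals outside the stretches, the members' share differed by -0.26, -0.52 and -0.10 percentage points (exact sign-flip permutation p = 0.25, the smallest possible). The mean difference of -0.29 became -0.13 (exact p = 0.5) when peaks within 50 kb of the regions found in all 3 lists were dropped, an alternative added after seeing the data, and replicate 4 then had 0.642% of members against 0.625% of others. With summits within 100 bp in place of overlap, or with folds of at least 3 alone, the mean difference turned to 0.00127 and 0.11 percentage points. The overlaps made 17 regions, 5 in replicates 1 and 3, 8 in replicates 1 and 4, and 4 in replicates 3 and 4. None lay in all 3 lists. Of the 134 regions of any kind, 12 did, and these sat at 2 loci only, 10 between 3000207 and 3035273 on chromosome 9 and 2 between 98662218 and 98667326 on chromosome 2. In 16 of the 17 both peaks were members, the exception being the region near Gulp1, whose partner peak lay at a gene end.

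**Figure D3:**
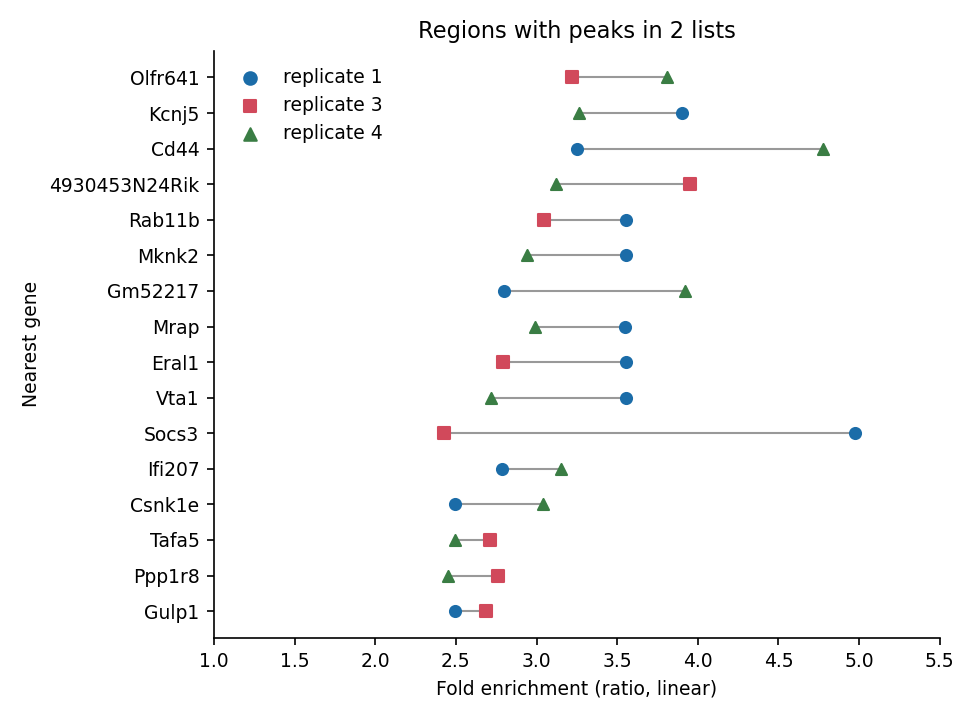
Fold enrichment in each library (horizontal axis) for the regions where a member overlapped a peak of another list, 1 row per region named by its nearest gene (vertical axis). The 16 regions drawn had peaks in 2 lists each, and replicate 1 took part in 12 of them.

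The shared regions lay near genes of varied function. Near Socs3, the feedback inhibitor of cytokine receptors, chr11:117962711-117963378 had 4.98 in replicate 1 and 2.43 in replicate 3. By rank of fold within the list it stood at percentile 99.4 in replicate 1 and 3.42 in replicate 3. Near Mrap, the accessory protein of the ACTH receptor that fat cells use for lipolysis, chr16:90735445-90736001 had 3.55 in replicate 1 and 2.99 in replicate 4.

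Mknk2, a kinase of the translation factor eIF4E, had values of 3.55 (replicate 1) and 2.94 (replicate 4), with summits 4 bp apart at 1.02 kb from the gene. Kcnj5, a potassium channel gene, had 3.90 and 3.26 in the same libraries, inside the lncRNA Gm39317. Rab11b, a GTPase of recycling endosomes, had 3.55 in replicate 1 and 3.05 in replicate 3. The other named regions lay near Olfr641 (3.22 and 3.81 in replicates 3 and 4), 4930453N24Rik (3.95 and 3.12 in replicates 3 and 4), Gm52217, Eral1, Vta1, Ifi207, Csnk1e and Tafa5. Csnk1e is a kinase of the circadian clock and Ifi207 an interferon-inducible gene. Only the Cd44 region held a peak with a q below 0.05.

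Counted by nearest gene, 4037 of 20665 protein-coding genes (19.5%) had a member in some list. Each list reached 1830 (8.86%), 948 (4.59%) and 1729 (8.37%) genes, 447 genes (2.16%) had a member in at least 2 lists and 23 (0.111%) in all 3. Genes near a member had more room around them, with a median of 22.8 kb of flanking stretch assigned to them, than all genes with 16.0 kb, and the 23 had 27.8 kb. Of the genes of replicate 1, 7.76% recurred in replicate 3 and 12.6% in replicate 4, where these lists reached 4.59% and 8.37% of all genes. Of the genes of replicate 3, 14.98% recurred in replicate 1 and 12.8% in replicate 4, and of those of replicate 4, 13.3% recurred in replicate 1 and 6.998% in replicate 3. The part that flank length plays in this recurrence was not tested. A peak on the gene itself, in its body or within 1 kb of it, was present in the same list for 27.1%, 20.1% and 26.4% of these genes and for 21.8%, 13.98% and 21.3% of all genes, while their median lengths were 23.7, 23.6 and 23.9 kb against 17.5 kb.

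The genes with a member in all 3 lists included cytoskeletal genes, with the best fold of each list given here in the order of replicates 1, 3 and 4. Tuba1a, an alpha-tubulin gene, had 5.05, 3.65 and 3.09, from summits 13.8, 11.4 and 1.62 kb away. Acta2, smooth muscle actin, had 3.34, 3.42 and 3.74, and its members lay in the lncRNA Gm31355. Kif20b, a kinesin gene, had 3.55, 3.13 and 3.07. None of these summits lay in a region shared by overlap, so the gene recurred in each list through peaks at different positions.

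Ypel2 had 4.27, 3.00 and 3.81, Fam81a 3.45, 3.65 and 3.26, and Toporsl 3.55, 3.02 and 3.40. Myoc, the gene of the extracellular protein myocilin, had 3.55, 3.45 and 3.02, Fam43a 4.14, 2.62 and 3.71, and Myrip, which links RAB27 to myosin, 3.79, 2.89 and 3.12. Frmd8, whose protein binds the iRhoms, had 4.71, 2.76 and 3.49, with 4, 1 and 1 members, all 6 of them in the body of Neat1. Neat1 (chr19:5824708-5845480) is the lncRNA that builds nuclear paraspeckles, and with Gm31355 it was 1 of 2 lncRNA genes hit in all 3 lists.

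**Figure D4:**
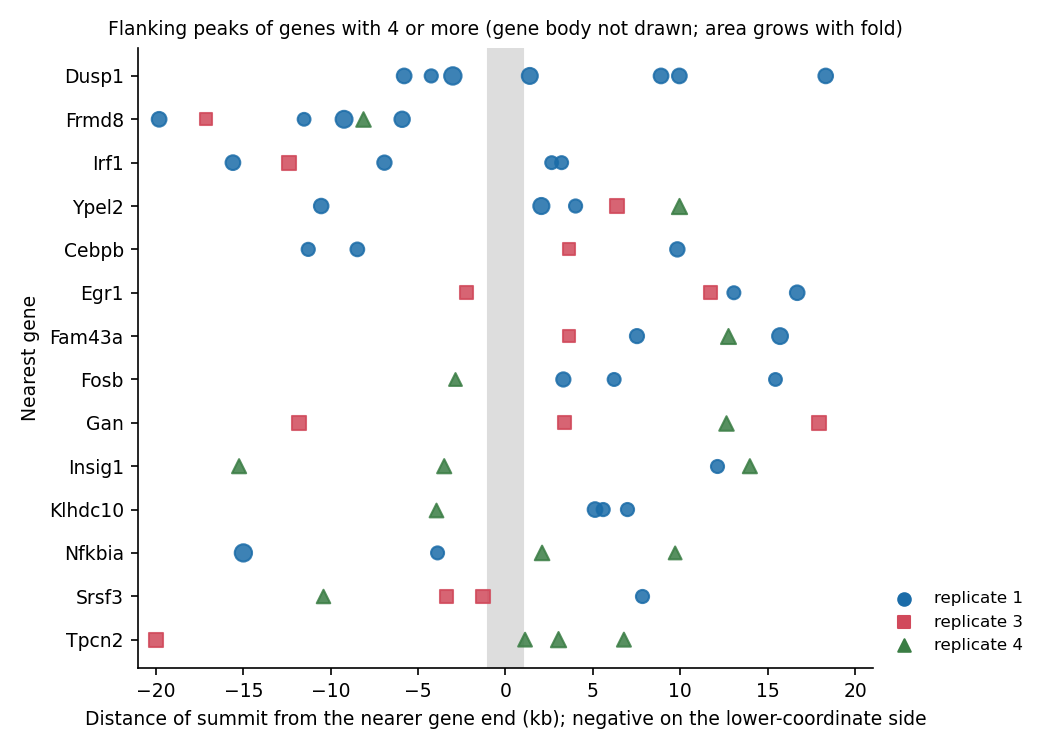
Position of each member relative to its nearest gene (horizontal axis, distance in kb) for the genes with the most members (vertical axis), negative on the side of lower coordinates, with the symbol giving the library and its area growing with fold. Dusp1 had 7 members, all from replicate 1, and Frmd8 had 6. The 14 genes drawn had at least 4 members each.

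The genes with the most members, picked after their counts were seen, drew unevenly on the libraries. Dusp1, the phosphatase that switches off MAP kinases, had 7 members, all in replicate 1, on both sides of the gene, with folds from 2.84 to 4.98. Irf1, a transcription factor of the interferon response, had 4, 1 and 0 members in replicates 1, 3 and 4. Cebpb, a C/EBP factor of early adipogenesis, had 3, 1 and 0, Fosb 3, 0 and 1, Nfkbia, the inhibitor of NF-kB, 2, 0 and 2, and Insig1, which restrains sterol synthesis, 1, 0 and 3. Tpcn2, a gene of an ion channel of endosomes and lysosomes, had 0, 1 and 3, so replicate 4 gave most members of both Insig1 and Tpcn2. Of the 20665 genes, 15 had at least 4 members.

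Immediate-early and feedback genes, which cells induce soon after a stimulus, had members at a higher share than all genes in each list, and the highest share was in replicate 1. Of 32 such genes, 18 had a member in replicate 1, 7 in replicate 3 and 7 in replicate 4, where 8.86%, 4.59% and 8.37% of all genes had one. Their flanks held 38.7, 9.69 and 8.48 members per Mb, where all flanks held 5.998, 2.95 and 5.56. Their median flank was longer, at 26.1 kb. Without replicate 1, 12 of the 32 (37.5%) had a member in replicate 3 or 4, compared with 12.4% of all genes. With folds of at least 3 alone the counts were 16, 4 and 4, and with a lower limit of 2 kb they were 16, 3 and 6. The list was drawn up with earlier results of these lists known, so its counts are no independent evidence.

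Of these genes, 9 had a member in at least 2 lists: Btg1, Egr1, Fos, Fosb, Gadd45a, Ier5, Klf10, Klf6 and Zfp36l2. Btg1, an antiproliferative gene, was the 1 with a member in all 3, at best folds of 3.32, 3.16 and 2.88. Fos, the partner of JUN in AP-1, had replicate 1 members at chr12:85457409-85457781 (fold 4.59, 6 fragments) and chr12:85465493-85465737 (fold 3.55), before its start, and a replicate 4 member at chr12:85490031-85490265 (fold 3.12) after its end. None of the Fos members overlapped each other. The lists differ in depth and in density at gene ends, as given above, and the part of either in these counts was not tested.

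**Figure D5:**
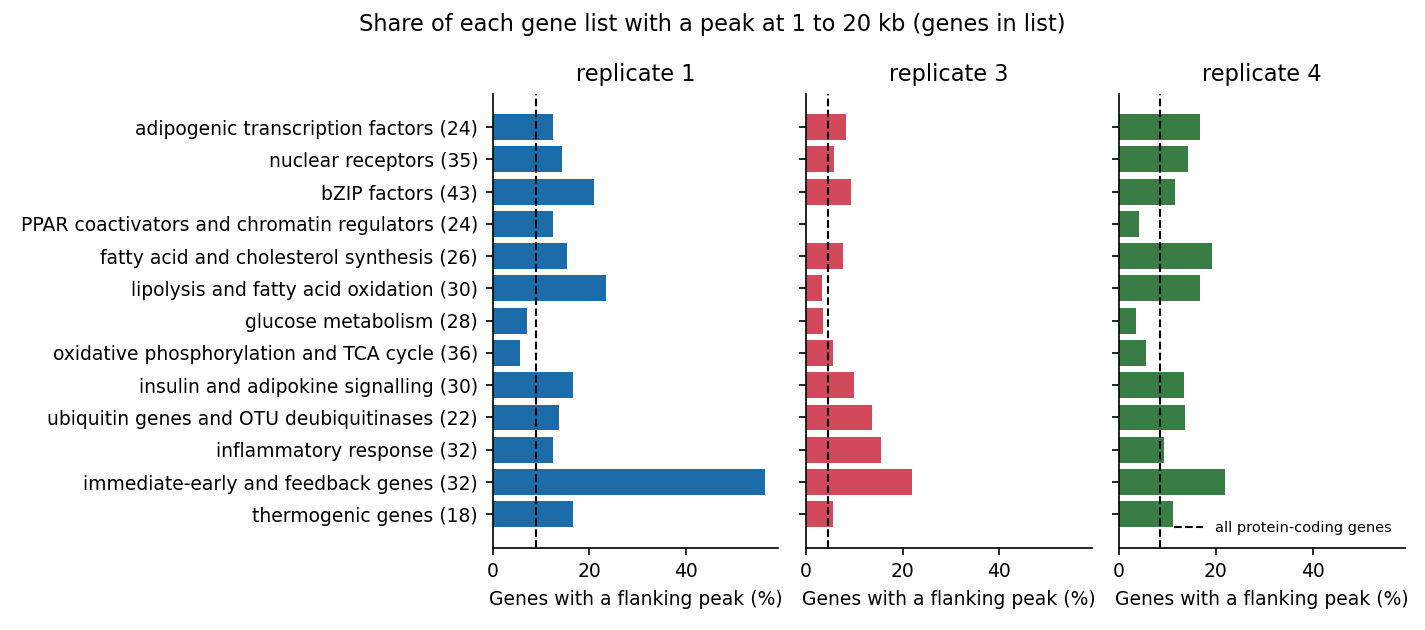
Percentage of the genes of each list with a member (horizontal axis), by gene list (vertical axis) and library, with a dashed line for all protein-coding genes and the marker lists left out. The immediate-early genes, with 18, 7 and 7 of 32 in replicates 1, 3 and 4, have the longest bar in each library.

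The other lists are read against the 8.86%, 4.59% and 8.37% of all genes with a member in replicates 1, 3 and 4, and no difference from these shares was tested. Among regulators, members were near several factors of fat cell fate. Of 24 adipogenic transcription factors, whose median flank of 34.4 kb was longer than that of all genes, 3, 2 and 4 (12.5%, 8.33% and 16.7%) had a member, led by Cebpb, with best folds of 3.41 (replicate 1) and 2.77 (replicate 3). Of 43 bZIP factors, the family of AP-1, ATF/CREB and C/EBP, 9, 4 and 5 (20.9%, 9.30% and 11.6%) had one, and without the 5 that are also immediate-early genes 6, 3 and 3 of 38. Crem, a CREB-family factor of the cyclic AMP response, had 3.28 (replicate 1) and 2.47 (replicate 4). Of 35 nuclear receptors, with a median flank of 20.7 kb, 5, 2 and 5 (14.3%, 5.71% and 14.3%) had a member, among them Nr1h2 (LXR-beta, fold 4.26), Nr4a1 (4.04) and Rxra, the shared partner of PPARG (3.84), all in replicate 1. No receptor had a member in more than 1 list. Without Nr4a1, which is also an immediate-early gene, 4, 2 and 5 of 34 had one. Of 24 coactivators and chromatin regulators, 3, 0 and 1 (12.5%, 0% and 4.17%) had one, with Med1, the Mediator subunit that nuclear receptors bind, at 3.32 and the deacetylase Sirt1 at 3.55 in replicate 1.

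Genes of fat handling had members in more than 1 list at a few loci. Of 30 genes of lipolysis and fatty acid oxidation, 7, 1 and 5 (23.3%, 3.33% and 16.7%) had a member, at 18.2, 2.03 and 10.1 members per Mb. Both measures were above those of all genes in replicates 1 and 4 and below them in replicate 3, where all flanks held 2.95 members per Mb. Fabp4, the fatty acid carrier of adipocytes, had replicate 1 members at chr3:10201687-10202008 (fold 3.55, 4 fragments) and chr3:10202509-10203327 (fold 3.34, 5 fragments) and a replicate 4 member on the other side of the gene at chr3:10210361-10210595 (fold 3.58, 6 fragments). The second of these was 819 bp wide, among the 3 widest members of replicate 1. For Cpt2, of mitochondrial fatty acid import, the folds were 3.55 (replicate 1) and 3.81 (replicate 4), and for Acadl, of beta-oxidation, 2.53 and 2.60. Fabp5, a related carrier, had 3.45 in replicate 1 and 3.22 in replicate 3.

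Of 26 genes of fatty acid and cholesterol synthesis, 4, 2 and 5 (15.4%, 7.69% and 19.2%) had a member. Scap, the escort of the SREBP factors, had 4.26 (replicate 1) and 2.72 (replicate 4), and Insig1, which holds SCAP back, had 2.81 and a best of 3.30 in the same libraries. Of 28 glucose genes 2, 1 and 1 (7.14%, 3.57% and 3.57%) had a member, below the share of all genes in each list, with the glucose transporters Slc2a1 (2.73) and Slc2a3 (2.69) in replicate 1 and Pdk4 (2.52), the kinase that shuts pyruvate out of oxidation, in replicate 3. Of 36 genes of oxidative phosphorylation and the TCA cycle 2, 2 and 2 (5.56% in each) had one, with Cox7a1 at 3.16 in replicate 3. Both lists have short flanks, with medians of 8.31 and 6.74 kb.

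In signalling, 5, 3 and 4 of 30 insulin and adipokine genes (16.7%, 10% and 13.3%) had a member, against 8.86%, 4.59% and 8.37% of all genes, with a median flank of 26.5 kb. Insr, the insulin receptor, had 2.49 in replicate 1 and a best of 3.09 in replicate 4, and Adipor1, an adiponectin receptor, 3.00 in replicate 3. Of 32 inflammatory genes, 4, 5 and 3 (12.5%, 15.6% and 9.38%) had one, with Irf1 at best folds of 3.55 and 3.33 in replicates 1 and 3 and Nfkbia at 4.90 and 3.49 in replicates 1 and 4. Of 18 thermogenic genes, 3, 1 and 2 (16.7%, 5.56% and 11.1%) had one, with Dio2, which activates thyroid hormone in brown fat, at 3.24 and Elovl3 at 3.55 in replicate 1.

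Ubiquitin genes were the group closest to the enzyme itself. Of 22 genes of ubiquitin and of deubiquitinases, 3 (13.6%) had a member in each list, against 8.86%, 4.59% and 8.37% of all genes. The deubiquitinases are not confined to the OTU group. Those of other groups with a member were Usp7 in replicate 1, Uchl1 in replicate 3 and Cyld in replicate 4. Ubb, a stress-induced gene that encodes ubiquitin, had 0, 1 and 2 members, and the replicate 3 member at chr11:62555378-62555633 had a fold of 3.68 from 7 fragments. Of the deubiquitinases, Otud1 had 1 member in replicate 1 (fold 3.79), Cyld, which trims ubiquitin chains in NF-kB signalling, 2 in replicate 4 (best 2.88) and Otud7b 1 in replicate 4 (2.92). Otud3 itself (chr4:138891063-138914026) had no member, with the nearest summit 45.0, 28.3 and 55.5 kb away.

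A peak does not measure expression, so the labelled cell type could not be checked from these files. Of 6 adipocyte markers, 1, 0 and 2 had a member, namely Fabp4, and in replicate 4 Adipoq as well (chr16:23163082-23163420, fold 3.20). Of 4 endothelial markers 1, 0 and 1 had one, and of 4 mesenchymal progenitor markers 1, 0 and 1. None of 5 macrophage markers and none of 4 epididymis markers had a member in any list. In all, 114 of the 377 distinct genes of these lists on chromosomes 1 to 19 had a member in some list, where 19.5% of all genes had one, and 22 of the 114 were immediate-early genes.

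Many members lay in noncoding genes. The summit was in the body of a lncRNA gene for 13.5%, 14.6% and 13.1% of members (273, 145 and 244), while lncRNA bodies take up 11.4% of the stretches, so all 3 libraries were somewhat above that share. Pseudogenes held 1.44%, 2.02% and 1.82% of members against 1.68% of the stretches, with replicate 1 below and the others above. Transcribed pseudogenes, counted apart, held 0.248%, 0.101% and 0.268% (5, 1 and 5 members) against 0.416%, below in each library. The members reached 587 lncRNA genes, of which 47 were hit in 2 lists and 2 in all 3. The share of all lncRNA genes that this makes was not worked out, so these counts have no background beside them. The part that the length of lncRNA genes plays in them was not tested.

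The peaks nearest the distance limits are given as a description. In replicates 1, 3 and 4 the members nearest the lower limit lay 1001 bp from Nudt9 (fold 3.41), 1005 bp from Lta (3.00) and 1002 bp from Pate7 (3.81), and the peaks just nearer lay 994 bp from Pom121l2 (2.84), 987 bp from Gstp1 (2.50) and 992 bp from Bmper (2.47). At the upper limit the members lay 19954 bp from Aldoart2 (2.66), 19984 bp from Tpcn2 (3.07) and 19949 bp from Lrfn5 (3.23), and the peaks just beyond 20013 bp from Mei4 (2.84), 20001 bp from Usp25 (3.68) and 20019 bp from Dym (3.26).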

How the data were processed

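Flag ChIP-seq peak lists of 3 libraries were used, 1 list per library with nothing pooled. The submitters' processing notes name MACS2 2.1.0, BWA 0.7.12 and fastp 0.19.11, and build mm10. The use of input in peak calling is not stated in the labels or headers, and the labels name both single-end and paired-end layouts. Each deposited peak carries a fold enrichment (a ratio over the local background) and −log10 p and q values from the authors' peak caller. The lists held 11876, 6541 and 13503 deposited peaks. Intervals repeated with several summits kept the summit of highest −log10 p.

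Read totals are not given, so depth was read from the peaks: fold is the fragments plus 1 over the background plus 1, and p is a Poisson tail, which gave whole fragments within 0.001 (log10) for 100% of peaks. The lowest background was 0.407, 1.17 and 0.839 fragments in replicates 1, 3 and 4, and 33 members of replicate 1 had 2 possible counts.

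Genes came from a RefSeq table of GRCm38.p6, with 20665 protein-coding genes on chromosomes 1 to 19; strand was known for 16457. The table has no exons, so introns, exons and UTRs were not told apart. Sequence was read only in RefSeq windows at gene starts and in miRNAs. Windows of lncRNA starts were set against all windows, those of protein-coding genes included, for the motif shares. The sequences of other peaks, which need a genome, were not analysed here. Classes of peaks were compared by an exact two-sided sign-flip permutation test over the 3 within-library differences, with Python 3.11.15, numpy 2.4.6, pandas 2.3.3 and scipy 1.17.1. The members and the 18 gene lists were chosen with earlier results of these data known.

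Named genes were those nearest to members with q below 0.05, the 15 highest shared regions, the 5 members of lowest p in each list, the 10 highest genes with a member in all 3 lists, up to 3 genes of each gene list, peaks nearest the limits, and Otud3; 1 gene that this rule takes is not reported here. Genes with the most or the widest members, and a few further list genes, were chosen after their values were seen. On simulated data 600 of 600 positions, 500 of 500 fragment counts and 40 of 40 planted overlaps were recovered, and 0 overlaps without planting. Alternatives were other fold, q, distance and overlap limits, other gene sets and chromosomes, and leaving out each library.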

Additional observations from a re-analysis of the deposited data

How the results depend on the processing

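Of 84 alternative values for 10 results, 71 neither reversed in sign nor moved past the limit set for counts and shares, and the same held for 12 of 15 of the immediate-early counts. For the differences with a sign-flip test only a reversal of sign could count, since that test cannot reach a p below 0.25. Dropping peaks within 50 kb of the regions in all 3 lists left the density, fold and width values and the counts unchanged. The 71 are therefore a weak measure of stability. Differences among the 71 could still shrink, as the width difference did from -1.83 to -0.33 bp without Gm and Rik genes, and the overlap difference from -0.29 to -0.13 percentage points without the loci shared by all 3 lists. The difference in median fold turned to -0.0109 with folds of at least 3 and to -0.0084 without Gm and Rik genes, and the overlap difference to 0.11 percentage points with folds of at least 3 and 0.00127 with summits within 100 bp. With folds of at least 3, genes with a member in all 3 lists fell to 6 and list genes with a member to 71. From 2 kb on, the share of summits was 13.8%. The mean number of members per list past the q limit (3.67) was 1 at a q of at most 0.01 and 0 at 1e-05. The immediate-early count fell to 4 in replicates 3 and 4 with folds of at least 3, and to 3 in replicate 3 from 2 kb on. With 1 library left out, genes in both remaining lists numbered 121 to 230 (121 without replicate 1, 230 without replicate 3, 142 without replicate 4), since 2 lists in place of 3 were required, and list genes with a member 73 to 97 (73 without replicate 1). The log2 density ratios then ranged from -0.27 to -0.13 against bodies, -0.48 to -0.12 against ends and 0.30 to 0.46 for near over far, the differences from 0 to 0.02 in median fold, -2.75 to -0.75 bp in width and -0.29 to -0.13 percentage points in overlap (-0.13 without replicate 3). Against ends, -0.12 came without replicate 1. Fewer peaks or libraries entered some of the alternatives, and the cause of these shifts was not tested. The median member rested on 4 to 6 fragments, and the part of depth in the overlap between libraries was not tested. No paired analysis was possible because the Flag libraries share their numbers only with the inputs, which were not analysed here. The sign-flip tests set classes of peaks against each other within each library and pair no samples.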
